A study of Mus musculus with 6 samples.

Results

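The genes described here act at successive steps of bone formation, from the first commitment of mesenchyme to the mineralised matrix. They were read as probe sets of the mouse palate at E13.5, counted in embryonic days, while the palatal shelves are growing. Of 8 genes named for this set, 6 had probe sets in the annotation used here: Msx2, Sp7, Alpl, Ibsp, Dmp1 and Phex, with 11 probe sets among 45037 (6 of 18193 genes). Runx2 and Spp1, the other two, were not analysed here. A probe set is a group of short probes read as 1 level, and a member probe set had to carry the gene as its single symbol. The genes were chosen by their levels per array and their genotype differences in these same 6 arrays, so those differences are given as a description, without a test of their own.

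The Fz1-null group held 3 palate samples of genotype Fz1-/-;Fz2+/+, and the double-null group held 3 of genotype Fz1-/-;Fz2-/-. Fz1 and Fz2 are Frizzled receptors for Wnt proteins, and their genes appear on the array as Fzd1 and Fzd2. All 6 samples lacked Fz1 by genotype, none was wild-type, and all came from a mixed C57BL6/129 background with embryos of mixed gender. The labels state neither the deleted exons nor the embryos or litters behind a sample, so replicates may be partly technical. Values are the authors' log2 RMA values, in which 1 unit is a doubling, and every difference is double-null minus Fz1-null. Arrays of the same number in the 2 groups are called a pair.

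In intramembranous bone, which forms the palate's bony plates, mesenchymal cells turn directly into osteoblasts. Msx2 is a homeobox factor of the early skeletogenic mesenchyme, Runx2 starts the osteoblast programme, and Sp7 (osterix) carries it on. Alpl encodes the alkaline phosphatase that frees phosphate for mineral, and Spp1 and Ibsp encode acidic matrix proteins. Dmp1 and Phex act late, in osteocytes, the cells buried in finished bone. Wnt signals reach this programme through Frizzled receptors.

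The series as a whole bears on these values as follows. Fzd2 lay lower in the double-null arrays without overlap, with differences from -1.48 to -1.25 over its 3 probe sets. They still read 9.14 to 10.53 in the double-null arrays, and the brighter Fzd1 probe set read 7.36 to 7.51 on all 6 arrays. Where these probe sets lie relative to the deleted parts is not given, so the remaining signal does not check the labels. The 3 Fzd2 probe sets were the whole-table calls of limma with the pair as a block at an adjusted p under 0.05 (0.00666% of 45037 probe sets), and without the block there were none (0%), although 431 probe sets had an unadjusted p under 0.05. Array medians ran from 7.22 to 7.27. All 10 palatal mesenchyme markers had mean levels above the median probe set, among them Osr2, Shox2 and Pax9, factors of the palatal shelf. Osteoclast markers, of the cells that resorb bone, did so for 2 of 9. RMA gives no detection call, so low values are reported as dim.

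No member probe set passed in the whole-table fit. The count was 0 of 11 by limma without the block (lowest adjusted p = 1.00) and 0 of 11 with it (lowest adjusted p = 0.966), beside shares of 0% and 0.00666% over all probe sets. By the brightest probe set of each gene, all 6 genes had a negative difference, with a median of -0.27 log2 units against -0.008 over 18193 genes. Over all 11 probe sets, 9 were negative and 2 positive. The median over the 6 genes was -0.17 without the double-null array numbered 2 and -0.17 without the Fz1-null array numbered 3. The direction was part of how the genes were picked, so this count carries no weight of its own.

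**Figure D1:**
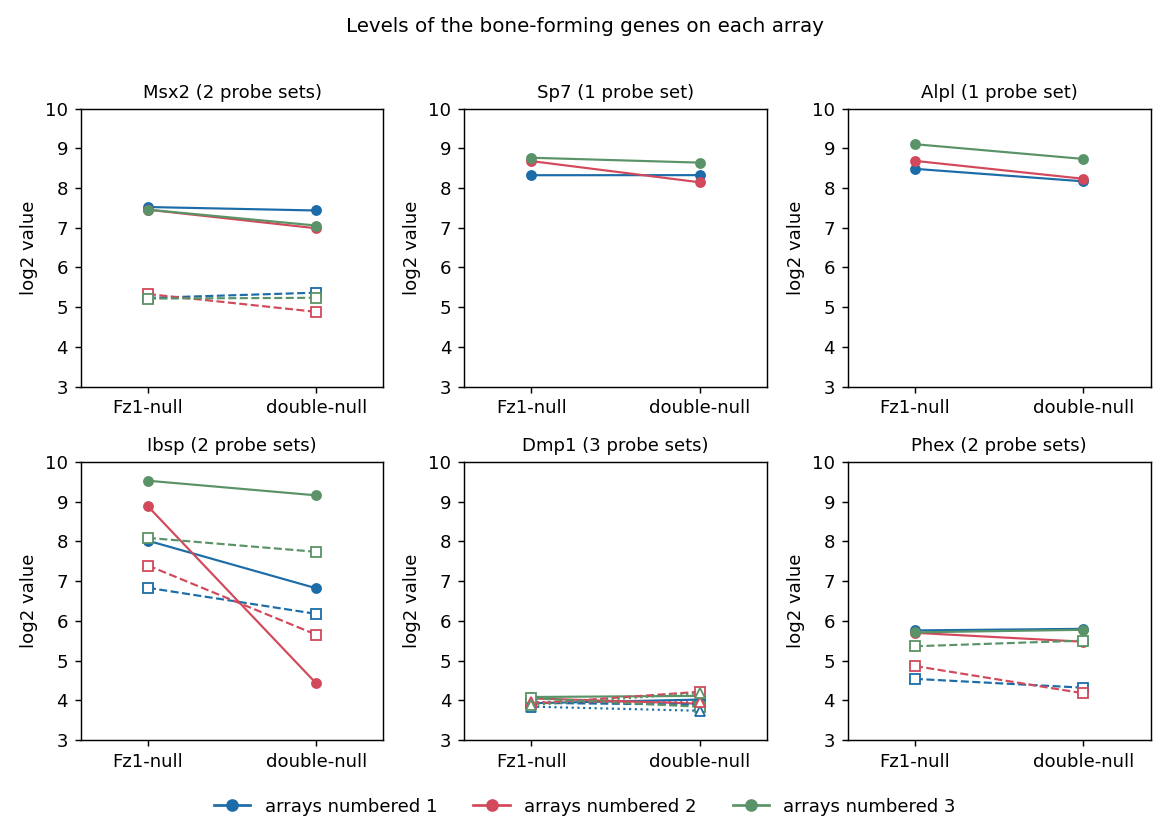
Log2 value (vertical axis) of each member probe set in Fz1-null and double-null palates. Lines join arrays of the same number; filled circles and solid lines are the brightest probe set of a gene, open symbols and broken lines the others. Ibsp spans from 4.43 to 9.53, while the Dmp1 probe sets stay between 3.74 and 4.22.

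Msx2, the earliest-acting member measured, was the 1 member whose groups did not overlap. Its brighter probe set, 1449559_at, read 7.52, 7.45 and 7.45 in the Fz1-null arrays numbered 1, 2 and 3, and 7.43, 6.99 and 7.06 in the double-null arrays. The Fz1-null arrays lay close together (SD 0.04), and 2 of the 3 double-null arrays were clearly lower while the array numbered 1 lay just below them. The pair differences were -0.09, -0.47 and -0.40, with a difference of means of -0.32 (SE 0.12, n = 3 a group), or 1.25-fold lower. A complete separation with the double-null arrays below occurred for 1 of 11 member probe sets and for 1.73% of all probe sets. Nothing is read from that share, because the contrast helped to choose the genes.

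The dimmer Msx2 probe set, 1438351_at, did not repeat the separation. It read 5.23, 5.33 and 5.22 in Fz1-null and 5.37, 4.88 and 5.24 in double-null palates, a difference of -0.10 (SE 0.13). Only the double-null array numbered 2 lay below the Fz1-null range. The mean of both probe sets differed by -0.21. In bulk tissue, fewer cells of a type and less RNA per cell cannot be told apart, here or below.

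The related factor Msx1, a homeobox gene of the anterior palate, showed pair differences of 0.06, -0.56 and -0.61, so the pairs numbered 2 and 3 again held the lower values. In the pair numbered 3, the summed level of epithelial markers differed by -0.57 log2 units, with 9 of 9 markers lower, and that of palatal mesenchyme markers by -0.30, with 9 of 10 lower. In the pair numbered 2 the summed differences were -0.07 and -0.05, with 6 of 9 and 5 of 10 markers lower, and the median epithelial marker differed by -0.30 there. By group means all 9 epithelial markers were lower, with a median of -0.21. Of the 10 palatal mesenchyme markers 8 were lower and 2 higher, with a median of -0.09. Osr2 (-0.27, SE 0.14) and Prrx2 (-0.22, SE 0.08) among them were lower without overlap, as the brighter Msx2 probe set was. Over all genes this held for 348 of 18193. Epithelial sums ran from 12.52 to 12.83 in Fz1-null and 12.23 to 12.77 in double-null arrays, and the part of these shifts in the Msx2 values was not tested.

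The 250 bases before the Msx2 start (RefSeq, GRCm38.p6, chr13:53472781-53473030, minus strand) are shown because Msx2 was the member without overlap. Capitals mark a homeobox core (TAATTA) 187 bases before the start, a GC box (GGGCGG) at 160 and a CCAAT box at 124.

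Msx2: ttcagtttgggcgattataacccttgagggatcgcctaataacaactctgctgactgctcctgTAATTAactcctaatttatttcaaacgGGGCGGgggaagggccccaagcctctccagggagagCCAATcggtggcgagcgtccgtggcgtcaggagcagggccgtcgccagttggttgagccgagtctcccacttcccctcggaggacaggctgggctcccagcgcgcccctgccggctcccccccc

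This window held 61.6% G and C with 16 CpG dinucleotides, against medians of 52.4% and 6 over 32851 promoter windows of the same length. On either strand, TAATTA occurred in 4.84% of those windows, GGGCGG in 32.7% and CCAAT in 33.8%. Such a match describes letters and is not a site or a cause.

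Sp7, the factor that commits precursors to the osteoblast fate, overlapped between the groups. Its probe set 1418425_at read 8.32, 8.68 and 8.76 in Fz1-null palates and 8.32, 8.14 and 8.64 in double-null palates. The double-null array numbered 2 was the lowest of the 6, and the Fz1-null array numbered 3 the highest. The pair differences were 0.002, -0.53 and -0.12, the mean difference was -0.22 (SE 0.16, n = 3 a group), and its size depended on single arrays. It was -0.11 without the double-null array numbered 2 and -0.13 without the Fz1-null array numbered 3. It was -0.35 without the Fz1-null array numbered 1 and -0.35 without the double-null array numbered 3.

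Alpl, the mineralisation enzyme, had the most even difference over the pairs. Its probe set 1423611_at read 8.48, 8.68 and 9.10 in Fz1-null palates and 8.17, 8.23 and 8.73 in double-null palates. Each double-null array lay below its partner, with differences of -0.31, -0.45 and -0.37, yet the groups overlapped because both arrays numbered 3 were high. The difference of means was -0.38 (SE 0.20 without the block and 0.06 with it, n = 3 a group), or 1.30-fold lower. Leaving out 1 array, it ranged from -0.56 without the double-null array numbered 3 to -0.21 without the Fz1-null array numbered 3. With the block the adjusted p of Alpl by limma was still 0.966. The block also lowered the SE of Sp7 (0.16 to 0.10) and of the brighter probe sets of Msx2 (0.12 to 0.09) and Ibsp (1.04 to 0.64). Counting brightest probe sets, 3 of 6 genes (Msx2, Alpl and Ibsp) were lower in all 3 pairs, and of all 11 member probe sets 4 were, beside 12.8% of all probe sets.

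RefSeq lists a pair of starts for Alpl, and the windows before them are set side by side because they differ in composition and the array does not tell which start was used. The upstream window (chr4:137796385-137796634) and the downstream window (chr4:137766476-137766725) lie on the minus strand of GRCm38.p6. Capitals mark overlapping GC boxes, the nearest 10 and 15 bases before the upstream start, and a reversed TATA box (TTTATA) 192 bases before the downstream start.

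Alpl upstream start: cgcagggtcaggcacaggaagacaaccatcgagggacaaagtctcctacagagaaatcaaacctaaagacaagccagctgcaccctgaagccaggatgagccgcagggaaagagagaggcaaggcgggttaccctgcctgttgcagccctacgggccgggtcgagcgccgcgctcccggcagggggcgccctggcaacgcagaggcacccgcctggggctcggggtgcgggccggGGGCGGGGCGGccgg
Alpl downstream start: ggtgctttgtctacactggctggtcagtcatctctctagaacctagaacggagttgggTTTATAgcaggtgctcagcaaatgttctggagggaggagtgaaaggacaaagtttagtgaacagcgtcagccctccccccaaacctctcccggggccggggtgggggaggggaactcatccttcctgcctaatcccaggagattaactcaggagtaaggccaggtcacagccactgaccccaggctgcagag

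The upstream window held 68.4% G and C with 20 CpG dinucleotides, and the downstream window 56.0% with 4. TATAAA or its reverse occurred in 12.4% of all windows.

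Ibsp, which encodes bone sialoprotein, an acidic matrix protein that binds hydroxyapatite, varied far more than any other member. Its brighter probe set, 1417484_at, read 8.02, 8.88 and 9.53 in Fz1-null palates and 6.82, 4.43 and 9.16 in double-null palates. The double-null array numbered 2 stood far below the rest, the array numbered 1 lay below all Fz1-null arrays, and the array numbered 3 sat within the Fz1-null range. The lowest value, 4.43, lay in the dim end of its array, where 8.42% of probe sets read lower, and these values do not show whether it was above background. Read as they stand, the pair values were 2.29-fold, 22.0-fold and 1.29-fold lower in the order of the numbers, and the 22.0-fold is not a measured size if 4.43 is background. The difference of means, which includes that dim value, was -2.01 log2 units (SE 1.04, n = 3 a group), smaller than the double-null SD of 2.37, and the Fz1-null SD was 0.76.

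The dimmer Ibsp probe set, 1417485_at, ordered the 6 arrays in the same way over a narrower range. It read 6.83, 7.40 and 8.09 in Fz1-null palates and 6.18, 5.65 and 7.74 in double-null palates. The pairs were 1.58-fold, 3.34-fold and 1.28-fold lower. Both probe sets were thus lower in every pair, and the size of the difference in the pair numbered 2 depended on the probe set read.

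Without the double-null array numbered 2 the difference of the brighter Ibsp probe set was -0.82, and without both arrays numbered 2 it was -0.78. Without the double-null array numbered 3 it was -3.19. That same array numbered 2 also stood apart in Xist, the RNA of the inactive X chromosome, at 7.49 against 11.76 to 12.74 on the other 5 arrays. The Y-linked gene Eif2s3y read 7.84 there and 3.36 to 7.00 elsewhere. Its 3.36 came from the double-null array numbered 1, where Xist was highest (12.74). On the Fz1-null arrays and the double-null array numbered 3, Eif2s3y read 5.30 to 7.00. The pair numbered 1 thus differed by -3.64 in Eif2s3y, and the pair numbered 2 by 2.06. In the pair numbered 2 the summed cartilage markers differed by 0.12, with 6 of 12 lower, and the osteoclast markers by -0.12, with 8 of 9 lower. Skeletal muscle markers differed by -0.24 in that pair, with 11 of 11 lower. Cartilage sums ran from 14.18 to 14.94 in Fz1-null and from 14.11 to 15.00 in double-null palates. The array numbered 1 was the lowest of each group, against 14.73 or more on the rest. Osteoclast sums ran from 10.24 to 10.43 in Fz1-null and from 10.20 to 10.45 in double-null palates. Endothelial markers were 0.23 higher (sums of 11.50 to 11.67 and 11.58 to 11.73) with 0 of 6 lower. The part of these sex-linked and marker differences in the Ibsp values was not tested.

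**Figure D2:**
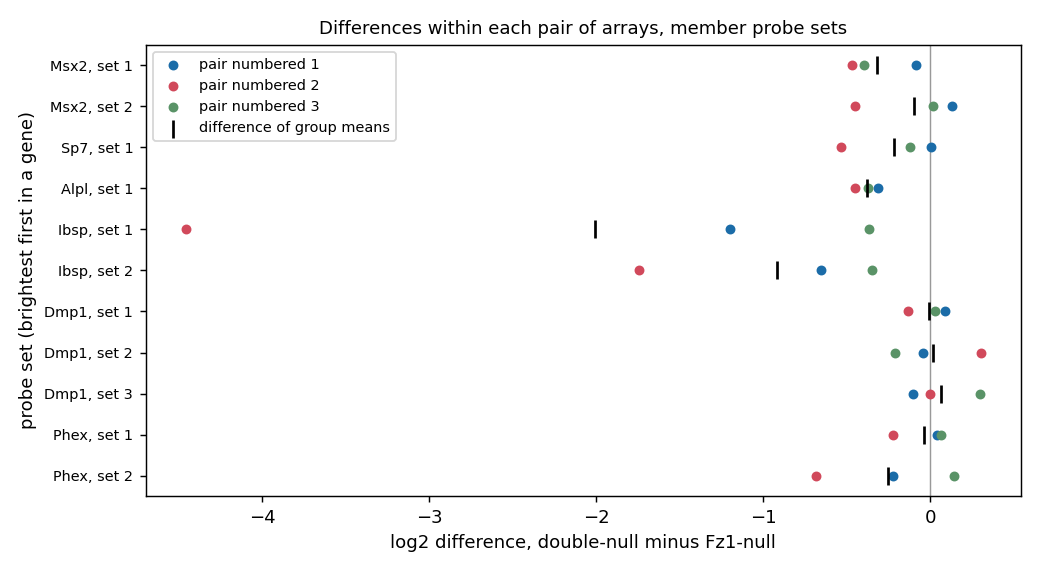
Log2 difference within each pair of arrays (horizontal axis, coloured points) and of the group means (black ticks) for the 11 member probe sets, brightest first in each gene. Alpl lies between -0.45 and -0.31 in every pair, while Ibsp runs from -4.46 to -0.37.

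Ibsp was also among the most variable transcripts of the palate. Its SD over the 6 arrays was 1.92 for the brighter and 0.94 for the dimmer probe set, against a median of 0.12 over all probe sets. Only 3 of 45037 probe sets had a larger SD than the brighter one, and 40 had a larger SD than the dimmer one. Alpl had an SD of 0.35 (2.66% of probe sets were larger), Sp7 0.25 (8.07%) and Msx2 0.23 (9.63%). The genotype difference is part of this spread, so these ranks are a description.

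**Figure D3:**
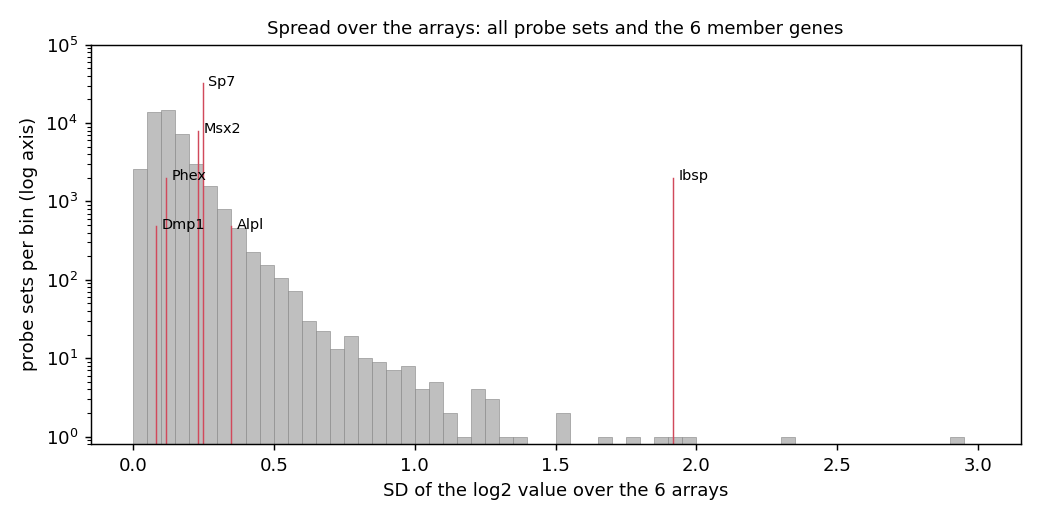
Number of probe sets (vertical log axis) by the SD of the log2 value over 6 arrays, with red lines at the brightest probe set of each member gene. Ibsp lies at 1.92, far to the right of Alpl at 0.35.

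The window before the Ibsp start (chr5:104299037-104299286, plus strand, GRCm38.p6) is shown because this gene had the widest range. Capitals mark a reversed CCAAT box (ATTGG) 54 bases and a reversed TATA box (TTTATA) 28 bases before the start.

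Ibsp: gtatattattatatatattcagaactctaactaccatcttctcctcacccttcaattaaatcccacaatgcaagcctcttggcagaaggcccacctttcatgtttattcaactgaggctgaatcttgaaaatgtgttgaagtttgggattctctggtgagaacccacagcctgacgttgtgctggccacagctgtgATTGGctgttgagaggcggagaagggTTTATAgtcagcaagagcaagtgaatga

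With 43.6% G and C and 2 CpG dinucleotides, it is poorer in both than the Msx2 window and than either Alpl window. Of the 7 motifs searched, the RUNX core (ACCACA), the TCF/LEF core (CTTTGA) and the AP-1 site (TGANTCA) were in none of the windows printed here. On either strand they were in 14.0%, 13.8% and 6.75% of all windows. This says only that the letters are not in these 250 bases. Windows of Dmp1 and Phex were searched too and are not printed. A Dmp1 window held the RUNX core 164 bases before its start.

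Ibsp lies on chromosome 5 between Dmp1 and Mepe, in a row of genes for acidic mineral-tissue proteins that also holds Dspp and Spp1. Its measured neighbours did not show its range, but Dspp, Mepe and Dmp1 had mean levels below the median level of 7.24. Dspp, best known from dentin, read 6.04 to 6.18 in Fz1-null and 6.08 to 6.29 in double-null palates. Mepe, an osteocyte matrix protein, read 6.26 to 6.46 and 6.26 to 6.55, and Dmp1 is given next. On the double-null array numbered 2, where Ibsp read 4.43, Mepe read 6.42, within its Fz1-null range. Sparcl1, beyond Dspp, lay above the median level and was higher in all 3 pairs, by 0.09, 0.47 and 0.14. Its difference of means was 0.23 (SE 0.12), and its values spanned 0.47 log2 units against 5.10 for Ibsp. Thoc2l, beyond Spp1 and below the median level, differed by 0.08 (SE 0.16) and spanned 0.57.

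The late genes Dmp1 and Phex lay in the lower part of the scale, as 5 of 5 probe sets fell below the median level of 7.24. Dmp1, an osteocyte matrix protein, read between 3.74 and 4.22 over its 3 probe sets and 6 arrays, where under 5% of probe sets had lower means (4.94%, 4.66% and 4.27%). The 3 differed by -0.005, 0.01 and 0.07 (SE 0.09, 0.11 and 0.12), with no common direction. Genotype groups overlapped in each of them, and differences this close to the bottom of the scale have little measured range.

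Phex, an osteocyte endopeptidase of phosphate balance, gave unlike readings from its pair of probe sets. The brighter one, 1450445_at, stayed between 5.48 and 5.80 on all arrays and differed by -0.04 (SE 0.10). The other, 1421979_at, read 4.54, 4.86 and 5.36 in Fz1-null and 4.32, 4.18 and 5.50 in double-null palates, a difference of -0.26 (SE 0.36). Its lowest array was again the double-null one numbered 2, and its 4 lowest arrays came in the same order as those of Ibsp. Its spread exceeded that of the brighter probe set (SD over 6 arrays of 0.55 against 0.12), and the groups overlapped in both. Phex lies on the X chromosome, and the double-null array numbered 2 also stood apart in Xist and Eif2s3y. Whether this bears on the Phex values was not tested.

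The double-null array numbered 2 was the lowest of the 6 for 8 of 11 member probe sets and for 5 of 6 genes, beside 14.4% of 18193 genes. For Dmp1, 1 of those 5, it read 3.92 against 3.93 on the next array. In the other bone lists it was the lowest for 6 of 23 regulators, 4 of 22 matrix and mineral genes and 0 of 6 osteocyte genes. Levels per array helped to choose the members, so their count is a description. The Fz1-null array numbered 3 was the highest for 3 of 6 genes, beside 14.5%. Over the 6 arrays, which share pairs and normalisation, the brighter Ibsp probe set correlated with Sp7 at r = 0.91 (rho 0.89) and with Alpl at r = 0.83 (rho 0.94). With Msx2 the figures were r = 0.48 and rho 0.43. With Dmp1, which lay at the bottom of the scale, they were r = 0.77 and rho 0.89, the same rho as for Sp7. With Phex they were r = 0.70 and rho 0.14. These are descriptions over 6 points in 3 pairs, and the single array numbered 2 weighs on each r.

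The genes most like Ibsp were taken from 11407 genes above the median level by Pearson's r over the 6 arrays. They were Dhrs11, a short-chain dehydrogenase (r = 0.98), Eef1aknmt, a methyltransferase (0.97), Prtg, an adhesion protein (0.97), Atp5g3, a subunit of ATP synthase (0.97), and Tnc, the matrix glycoprotein tenascin C (0.96). Their ranges over the arrays were 0.16, 0.21, 0.21, 0.10 and 0.65 log2 units, against 5.10 for Ibsp. For Msx2 they were Zfp868 (0.98), Tti1 (0.97), the mitotic kinase Aurkb (0.96), Polr1b, a subunit of RNA polymerase I (0.96), and Ythdc2, an RNA helicase (0.96), with ranges from 0.10 to 0.23. So many candidates against 6 arrays give high r values readily, and no p is given.

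Other genes of bone formation showed small differences. Of 58 genes in 3 lists, 51 were measured, 32 lower and 19 higher in double-null palates, with a median difference of -0.03 against -0.008 over all genes. None of their 100 probe sets passed limma with or without the block (lowest adjusted p = 0.966 and 1.00 in that order), beside the same shares of 0.00666% and 0%. In all 3 pairs 12 of 51 were lower, beside 2532 of 18193 genes. Hand2, Slc20a2, Sost and Dspp were higher in all 3 pairs, beside 1995 of 18193 genes. For 2 of 51 (Dlx3 and Fgf23) all double-null arrays lay below all Fz1-null arrays, beside 348 of 18193 genes. For Hand2 and Sost they all lay above, beside 498 of 18193 genes.

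Among the regulators, 17 of 23 were lower, with a median of -0.06 and pair medians of -0.07, -0.01 and -0.11. The largest differences were those of Msx1 (-0.37, SE 0.19), Pth1r, the receptor of parathyroid hormone (-0.16, SE 0.13), and Runx1, a relative of Runx2 (-0.16, SE 0.18). Dlx5 and Dlx6, homeobox factors of the jaw and osteoblasts, differed by -0.15 and -0.13 and were lower in each pair. Twist1, a factor that holds back osteoblast maturation, differed by -0.01 (SE 0.09). The summed level of all 23 regulators ran from 14.55 to 14.67 in Fz1-null and from 14.49 to 14.52 in double-null arrays, without overlap. That sum differed by -0.06, -0.03 and -0.18 in the 3 pairs. The sum of the palatal mesenchyme markers, whose groups overlapped, differed by 0.02, -0.05 and -0.30. How often sums of this many genes separate was not tested.

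Among matrix and mineral genes, 13 of 22 were lower, with a median of -0.03 and pair medians of -0.02, -0.03 and 0.01. The 3 genes with the largest differences were lowest against their partners in the pair numbered 2. Panx3, a channel protein of osteoblasts and cartilage, read 6.83, 7.54 and 7.77 in Fz1-null and 6.84, 6.53 and 7.96 in double-null palates. Ifitm5, a membrane protein of osteoblasts, read 7.73, 8.23 and 8.16, then 7.50, 7.63 and 8.30. Smpd3, a sphingomyelinase needed for mineralisation, read 7.85, 7.75 and 8.08, then 7.68, 7.42 and 8.21. Each lay below its partner in the pair numbered 2 and above it in the pair numbered 3. The differences of means were -0.27 (SE 0.38), -0.23 (SE 0.22) and -0.12 (SE 0.19). Col1a1, the main collagen of bone and of loose mesenchyme alike, differed by -0.09 (SE 0.21), and by -0.08 in the pair numbered 2.

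Osteocyte genes other than the members were higher in 4 of 6, with a median of 0.05, and 1 of 6 had a level above the median. Sost, a secreted Wnt inhibitor, was read by the brighter of its 2 probe sets. It read 5.30, 5.46 and 5.42 in Fz1-null and 5.70, 5.54 and 5.60 in double-null palates, a difference of 0.22 (SE 0.08). The double-null arrays lay above without overlap, as they did for 498 of 18193 genes, and the dimmer probe set is not given here. Dspp differed by 0.11 (SE 0.09) and the phosphate hormone Fgf23 by -0.09 (SE 0.07). All 3 lay in the lower part of the scale, as Dmp1 and Phex did.

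**Figure D4:**
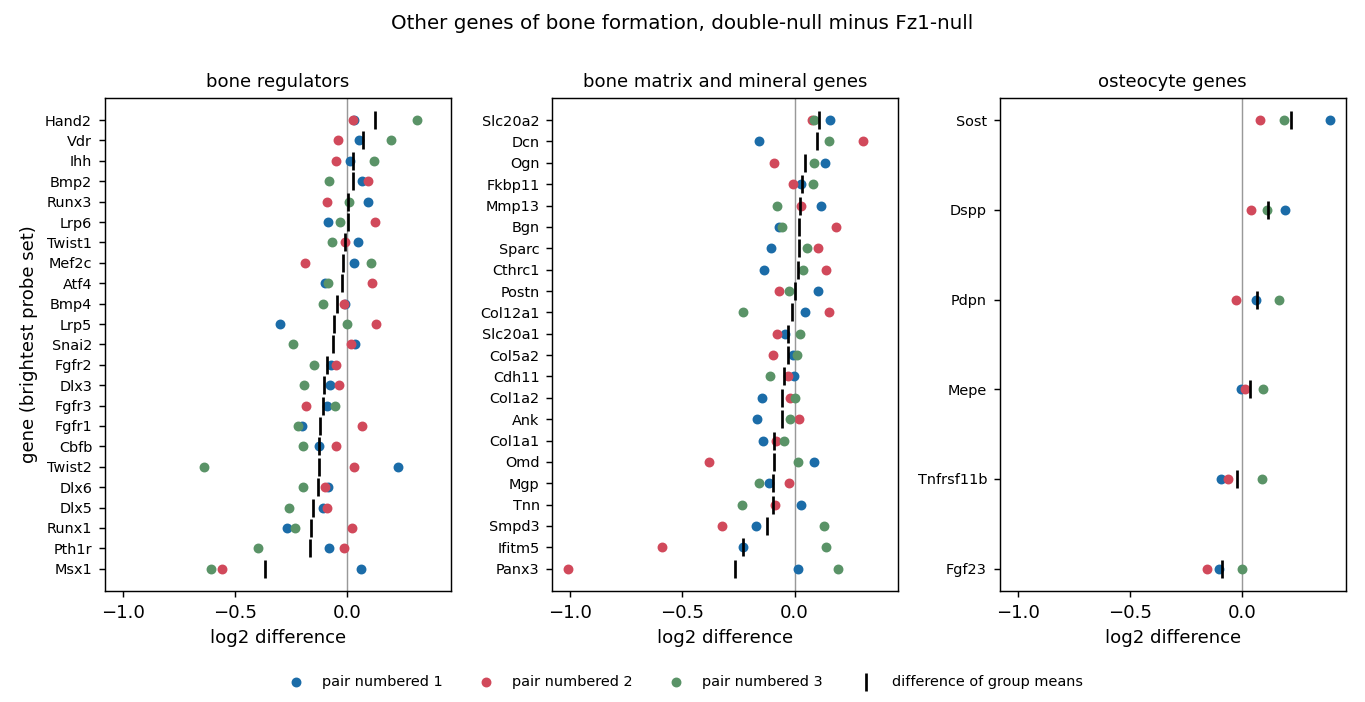
Log2 difference, double-null minus Fz1-null, within each pair (coloured points) and of the group means (black ticks) for 51 other genes of bone formation, in 3 lists. The points of the pair numbered 2 reach -1.01 for Panx3 and -0.59 for Ifitm5, and those of most other genes lie near 0.

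Markers of other cell types differed between the groups by amounts that varied with the pair. Skeletal muscle markers differed in summed level by -0.16 and -0.24 in the pairs numbered 1 and 2 and by 0.77 in the pair numbered 3 (7, 11 and 0 of 11 lower), with sums of 12.90 to 12.98 in Fz1-null and 12.71 to 13.75 in double-null arrays. Neuronal markers differed by -0.35, -0.14 and 0.14 in the 3 pairs, with sums of 12.91 to 13.58 and 12.77 to 13.37. Macrophage sums ran from 10.93 to 11.05 and 10.97 to 11.16, tooth sums from 7.67 to 7.81 and 7.69 to 7.86. No probe set of these marker lists passed the whole-table fit, with or without the block (lowest adjusted p by limma = 0.966 and 1.00). Epithelial sums differed by -0.02, -0.07 and -0.57, and the medians of the 9 epithelial markers by -0.003, -0.30 and -0.56. The part of these marker shifts in the member genes' values, Alpl included, was not tested.

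**Figure D5:**
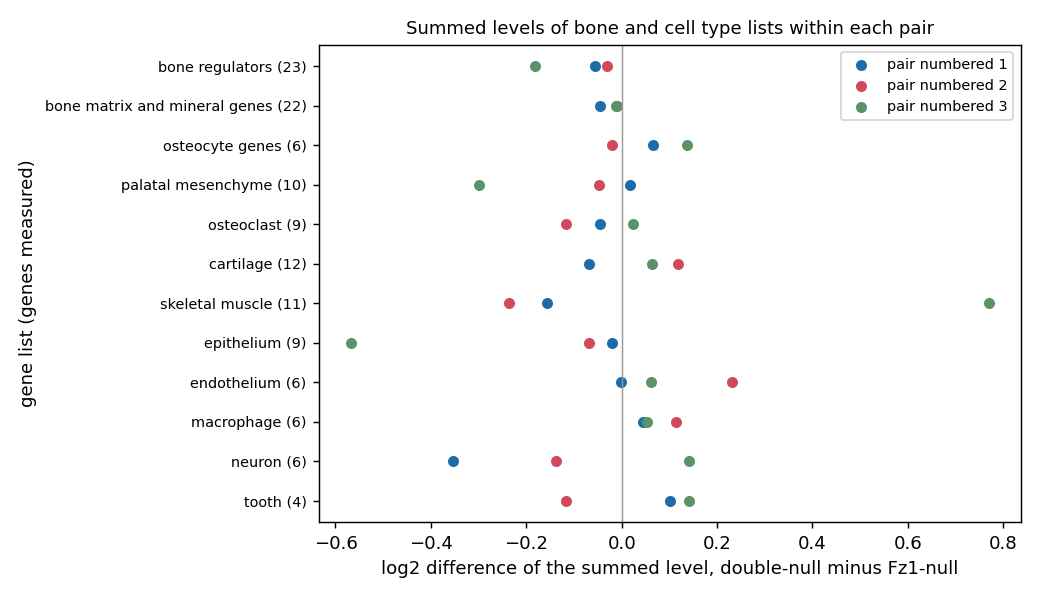
Log2 difference of the summed linear level of each gene list within each pair of arrays (horizontal axis); the number of genes measured is in brackets. Muscle reaches 0.77 and epithelium -0.57 in the pair numbered 3, while the matrix and mineral genes stay between -0.05 and -0.01.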

How the data were processed

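RNA of 6 E13.5 palate samples (3 Fz1-null, 3 double-null) was hybridised to 1-colour Affymetrix mouse expression arrays. The authors deposited log2 values made by RMA, per the submitters' processing notes; its version is not given in the sources used here. RMA subtracts background, forces the arrays to 1 distribution and fits 1 level a probe set, which compresses differences of dim probe sets. The authors' deposited table of log2 fold changes equalled the difference of group means with the sign turned for 45037 of 45037 probe sets (tolerance 1e-06) and was not used further. Depth in reads does not apply; 3 arrays a group limit the precision.

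Of 45101 probe sets, 64 controls were left out. The platform annotation gave 1 symbol to 34945 of the rest, several to 932 and none to 9160, and 34741 were matched to RefSeq by Entrez identifier. A gene was read by its brightest probe set. All 45037 probe sets were fitted with limma 3.58.1 in R 4.3.3 on genotype, with Benjamini-Hochberg adjustment and a threshold of 0.05, and the fit was tested on simulated data. The replicate number as a block was an alternative: deviations from the group means of same-numbered arrays correlated at 0.63, 0.44 and 0.63, so the numbers were taken as pairs. Other alternatives left out each array, centred each array on its median, repeated the quantile normalisation, gave eBayes an intensity trend, added 32 to linear values, filtered dim probe sets or averaged the probe sets of a gene.

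Members and gene lists were chosen with earlier results of these data known. Beside the members, the 3 genes of each bone list with the largest difference were named, and for Ibsp and Msx2 the 5 genes of highest Pearson's r; Dlx3, Dlx5, Dlx6, Twist1, Col1a1 and Mepe were named after their values were seen. Promoter windows of 250 bases are RefSeq's (GRCm38.p6).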

Additional observations from a re-analysis of the deposited data

How the results depend on the processing

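With the replicate block the whole table gave 3 calls in place of 0, all Fzd2 probe sets. It changed no call of the members or of the other bone genes, which stayed at 0 in 14 alternatives, among them an adjusted p threshold of 0.1. The median difference over the members ran from -0.35 to -0.15 in 12 alternatives. Leaving out both arrays numbered 2 was chosen after seeing the data. Over 11 alternatives each, Ibsp ran from -3.19 to -0.78, Alpl from -0.56 to -0.21, Msx2 from -0.46 to -0.21 and Sp7 from -0.35 to -0.06. For Sp7, the lowest size came without both arrays numbered 2. Phex was below 0 in 9 and Dmp1 in 6 of 11, so neither had a settled direction. Signal near the bottom of the scale limits Dmp1 and the lowest Ibsp value, and the annotation left Runx2 and Spp1 unread.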
